A study of Homo sapiens with 4 samples.

Results

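The reporter-positive, E-cadherin-poor cells of the lung cancer line PC14, sorted as E-cadherin-low and CD133-high and labelled PC14 E-CD133+, are described here by the genes that set them apart from the 3 other sorted subpopulations of the same line. A gene belonged to the set when its signal was at least 2-fold above, or at least 2-fold below, that of each of the 3 other arrays, after values under the median probe set of an array had been raised to that median, called the floor. Of 14083 measured genes, 329 met this rule, 244 of them higher and 85 lower. The signals themselves chose these genes, so their values are a description and not a test.

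PC14 is an established human line of non-small-cell lung cancer. The 4 subpopulations come from a 2 by 2 sort: flow sorting for E-cadherin gave a high and a low fraction, and each was divided again by GFP from a lentiviral reporter under the P1 promoter of CD133. They were E-cadherin-low CD133-high, E-cadherin-high CD133-high (PC14 E+CD133+), E-cadherin-low CD133-low (PC14 E-CD133-) and E-cadherin-high CD133-low cells (PC14 E+CD133-), with no drug or other treatment given in the labels. Every subpopulation shared the genetic background of 1 line, carried the reporter according to the design, and was read on 1 Affymetrix array of total RNA. With 1 array a group there is no spread between replicates, no difference has a replicate check, no p-value is given, and precision is limited by the number of arrays.

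Loss of E-cadherin, the adhesion protein that joins epithelial cells, marks the change of carcinoma cells from an epithelial to a mesenchymal state, in which junction genes are repressed by factors such as ZEB1 and matrix, protease and cytoskeletal genes are induced. CD133, encoded by PROM1, is a membrane protein used to enrich tumour cells with stem-like behaviour, and in lung cancer both states have been tied to drug resistance and spread. In the text below, 4 signals of a gene stand in a fixed order: E-cadherin-low CD133-high cells first, then E-cadherin-high CD133-high, E-cadherin-low CD133-low and E-cadherin-high CD133-low cells.

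The sort could be checked for E-cadherin and not for CD133. CDH1, the E-cadherin gene, read 347 against 5548, 528 and 3546, and ZEB1, its repressor, read 1301 against 168, 1056 and 64.8, so both E-cadherin-low arrays differed from both E-cadherin-high arrays. PROM1 read 10.3 against 12.1, 4.79 and 29.7, under the floor everywhere, and CD133 status rests on the reporter alone. Floors were 53.7 to 60.3 signal units, the highest of them in E-cadherin-low CD133-high cells, and 12309 to 12459 genes per array exceeded the floor. The ratio of 3' to 5' signal, a sign of RNA integrity, was 1.78 for actin and 1.02 for GAPDH on this array, against 1.53 to 1.59 and 0.898 to 0.963 on the others. The array with the most genes set apart was thus also the one with the highest values of both ratios, and their part in the differences was not tested.

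The E-cadherin-low CD133-high cells stood further apart on the high side than any other subpopulation under the same rule. The 244 higher genes were 1.73% of those measured, against 72 (0.511%) in E-cadherin-high CD133-high, 67 (0.476%) in E-cadherin-low CD133-low and 38 (0.270%) in E-cadherin-high CD133-low cells. On the low side the 85 genes were 0.604%, against 72 (0.511%) in E-cadherin-high CD133-high, 104 (0.738%) in E-cadherin-high CD133-low and 161 (1.14%) in E-cadherin-low CD133-low cells. The balance depended on scaling: with equal array medians the counts were 190 higher and 123 lower, and after quantile normalization 225 and 100. Under these scalings E-cadherin-high CD133-low cells had 107 and 95 lower genes, so that their order with E-cadherin-low CD133-high cells turned. No test of these counts was possible with 1 array a group.

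**Figure D1:**
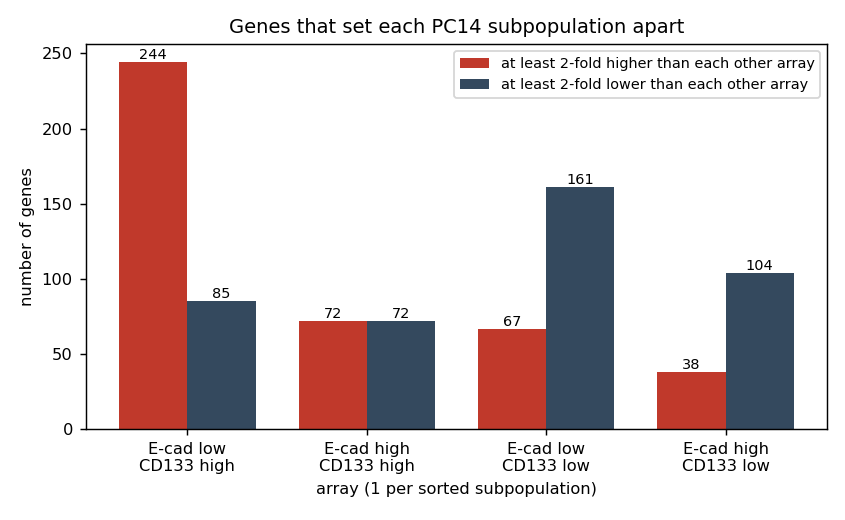
Number of genes (vertical axis) that were at least 2-fold higher (red) or at least 2-fold lower (dark) on 1 array than on each of the other 3, for the 4 arrays in turn (horizontal axis). E-cadherin-low CD133-high cells have 244 higher genes, against 38 to 72 on the other arrays, and 85 lower genes, against 72 to 161.

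Most differences were moderate and a few were very large. The median of the smallest of a gene's 3 ratios was 2.55-fold among higher and 2.35-fold among lower genes; 56 higher and 8 lower genes passed 4-fold, and 12 higher and 1 lower gene passed 8-fold. At the limit of the rule on the high side, TBXAS1 (at least 2.01-fold) and H2BC6 (2.001-fold) were just inside. EREG (at least 1.999-fold) and LHX4 (1.997-fold) were just outside. For TBXAS1 and EREG all 3 other arrays were at the floor, so these ratios are lower bounds. On the low side PKIA (2.01-fold) and EXPH5 (2.0003-fold) were just inside and UBE2NL (1.990-fold) and OCA2 (1.988-fold) just outside. For 45 of the higher genes all 3 other arrays were at the floor, for 71 only 1 or 2 were, and for 128 none was. Of the lower genes, 13 were at the floor in E-cadherin-low CD133-high cells and 72 lay above it on all arrays.

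SPP1 and the pair TFPI2 and GNG11, neighbours on chromosome 7, headed the higher genes by the smallest ratio. Their promoters, the 250 bases before the RefSeq start in build GRCh38.p14, are shown because these 3 genes carry the largest differences. Capitals mark matches on either strand to 2 motifs, CAGGTG (the E-box that ZEB1 binds) and TGANTCA (the site of the AP-1 factors, dimers of FOS and JUN proteins), which do not overlap here. They lie at chr4:87975464-87975713 on the plus strand for SPP1, chr7:93890754-93891003 on the minus strand for TFPI2 and chr7:93921485-93921734 on the plus strand for GNG11.
SPP1: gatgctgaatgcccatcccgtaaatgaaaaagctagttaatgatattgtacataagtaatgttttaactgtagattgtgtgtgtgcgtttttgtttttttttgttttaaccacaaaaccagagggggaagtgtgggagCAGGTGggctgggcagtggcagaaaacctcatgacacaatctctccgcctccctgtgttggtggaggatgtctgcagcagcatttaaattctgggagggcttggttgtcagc
TFPI2: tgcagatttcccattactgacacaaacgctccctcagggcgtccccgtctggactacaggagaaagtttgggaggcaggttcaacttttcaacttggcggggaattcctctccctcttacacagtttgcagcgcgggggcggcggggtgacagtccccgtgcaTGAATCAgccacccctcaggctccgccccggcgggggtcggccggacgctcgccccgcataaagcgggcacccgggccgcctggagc
GNG11: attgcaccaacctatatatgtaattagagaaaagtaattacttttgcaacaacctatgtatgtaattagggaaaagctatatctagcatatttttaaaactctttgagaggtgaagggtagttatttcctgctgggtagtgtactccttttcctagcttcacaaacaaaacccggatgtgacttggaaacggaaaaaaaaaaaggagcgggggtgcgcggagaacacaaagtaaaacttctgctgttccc
The SPP1 window held 1 E-box match, 112 bases before the start, and the TFPI2 window 1 AP-1 match, 87 bases before it. The GNG11 window held neither. Such matches are common: CAGGTG was found in 17.5% of 35116 RefSeq promoter windows of this length, in 16.3% of the 16376 windows of measured genes, in 15.1% of 311 windows of 187 higher genes and in 20.9% of 110 windows of 72 lower genes. In the same order the shares for TGANTCA were 6.57%, 4.56%, 6.75% and 3.64%. The cyclic-AMP response element TGACGTCA was in 1.65%, 2.39%, 1.29% and 3.64% of the windows, and the TATA-box letters TATAAA were in 10.7%, 6.56%, 12.9% and 5.45%. A match is a run of letters and not evidence of binding.

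SPP1 encodes osteopontin, a secreted phosphoprotein of the matrix that binds integrins and CD44. It read 18749.8 against 428, 182 and 176, which is 43.8-fold above the next array, and only E-cadherin-low CD133-high cells had a strong signal. TFPI2, a secreted inhibitor of serine proteases including plasmin, read 14974 against 121, 35.6 and 1251. On this probe set it was under the floor in E-cadherin-low CD133-low cells, the subpopulation that shares the E-cadherin state, where its other probe set read 57.8 against a floor of 57.0. The next highest signal was in the opposite corner of the sort, E-cadherin-high CD133-low cells, 11.97-fold lower. GNG11, a gamma subunit of heterotrimeric G proteins, had the same order of arrays, 1810.1 against 47.1, 37.7 and 145, with both arrays that share 1 marker under the floor.

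CCND2, SGK1 and MME completed the 5 marker genes of the subpopulation. CCND2, cyclin D2, which drives the G1 phase through CDK4 and CDK6, read 4749 against 418, 11.8 and 66.5. It was under the floor only in E-cadherin-low CD133-low cells, and its 3 other probe sets were each highest in E-cadherin-low CD133-high cells. SGK1, a kinase of the AKT family that responds to glucocorticoids, growth factors and salt, read 2987 against 175, 264 and 228, with the 3 other arrays close to each other and 11.3-fold lower or more. MME, the surface peptidase neprilysin (CD10), read 4532 against 12.8, 673 and 199, and was under the floor in the other CD133-high cells. A further probe set of each of SPP1, TFPI2 and MME was also highest here, at 207, 10331 and 3415, against at most 43.1, 513 and 569.5 on the other arrays. SGK1 had 1 probe set.

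**Figure D2:**
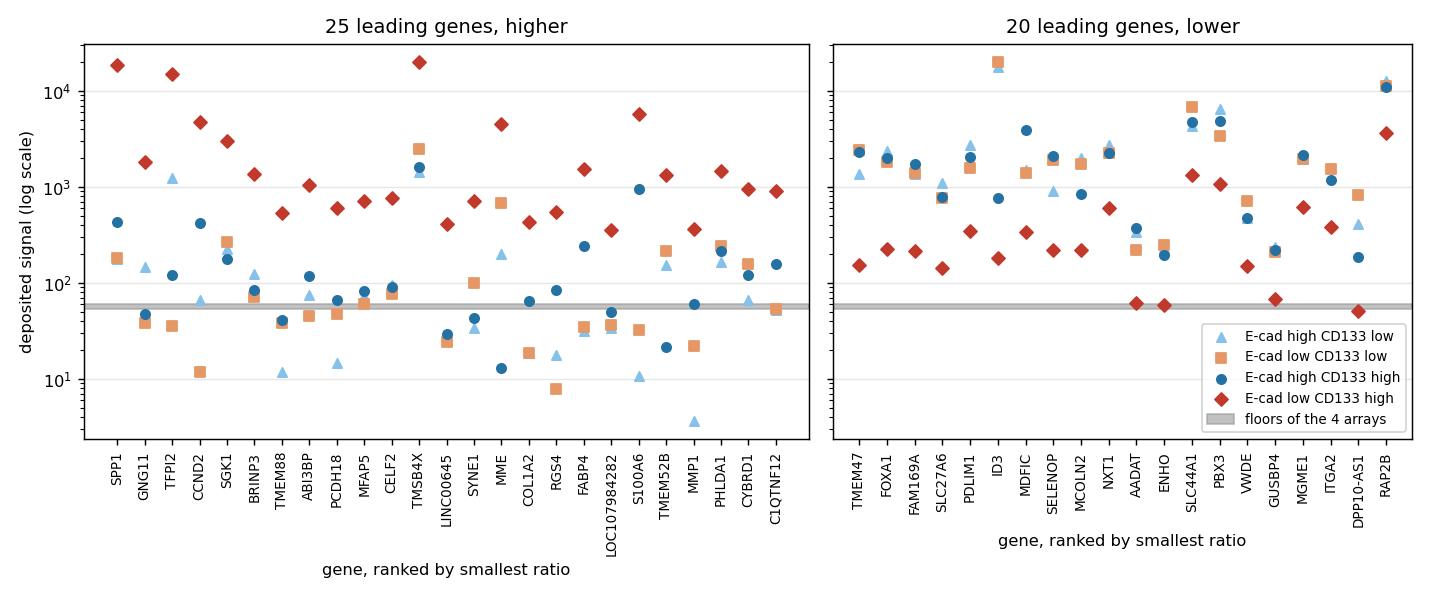
Deposited signal on a log axis for the 25 higher genes (left) and the 20 lower genes (right) with the largest smallest ratio, ranked from left to right; each gene has 1 point per array (red diamonds: E-cadherin-low CD133-high cells) and the grey band spans the floors of the 4 arrays, 53.7 to 60.3. Red diamonds lie above all other points on the left and below them on the right, since the rule chose the genes so; among the higher genes many of the other points lie at or under the band, while most lower genes keep signals well above it on the 3 other arrays.

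Of 28 measured genes for structural matrix proteins, 5 were counted as higher and 0 as lower, against 1.73% and 0.604% of all measured genes, with a median log2 difference from the mean of the other arrays of 0.52, against 0.03 over all measured genes. SPP1, a marker gene of the subpopulation, COL12A1, VCAN and LUM led the counted genes of this list by smallest ratio. COL1A2, MFAP5 and ABI3BP, also given below, were not on it. Over all 30 measured genes whose symbols begin with COL, 2 were higher. COL12A1, a collagen of the fibril surface, read 1019 against 109, 230.3 and 69.6. Of its other probe sets above the floor, those at 414 and 87.5 here were highest here. Another was highest in E-cadherin-low CD133-low cells, at 82.0 against 57.6 here. COL1A2, a chain of type I collagen, read 435 against 65.1, 18.6 and 18.8, and VCAN, the large proteoglycan versican, read 553 against 244, 119 and 155. In VCAN and in LUM, lumican, which read 1390.1 against 626, 131 and 228, the other CD133-high cells came next, and they did so in the small proteoglycan DCN, decorin, at 358 against 171, 52.9 and 76.1. MFAP5, a glycoprotein of elastic microfibrils, was 8.75-fold above the next array (717 against 82.0, 59.6 and 72.1), and ABI3BP, a matrix protein that binds integrins, read 1053 against 116, 44.7 and 74.3.

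The presence of stromal cells was looked at through marker genes, since collagens and small proteoglycans also mark fibroblasts. Of 11 fibroblast and smooth muscle markers on the arrays, 8 were measured. Of these 8, COL1A2, DCN and LUM were among the higher genes, against 1.73% of all measured genes. The summed signal of the list was 24174 in E-cadherin-low CD133-high cells and 18184 to 32454 on the other arrays. Of the 8 measured markers 4 were highest here, against 28.6% of all measured genes, and the part of stromal cells in the matrix signals was not tested. PDGFRA, PDGFRB and MYH11 were under the floor on all arrays. Of the endothelial list 2 of 8 genes were measured (sum 244, against 315 to 361), and of the leukocyte list 5 of 9 (sum 1329.8, against 609.6 to 1484). No gene of the endothelial or leukocyte list was counted.

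MMP1, TIMP1, TFPI2 and PLAT were among the higher genes. Among 27 measured matrix proteases and inhibitors 3 were higher and 0 lower, against 1.73% and 0.604% of all measured genes, with a median log2 difference of 0.35. MMP1, interstitial collagenase, read 367 against 60.1, 21.8 and 3.64. TIMP1, an inhibitor of metalloproteases, read 272 against 34.5, 67.4 and 54.7, and ADAMTS1, a protease that cleaves versican, read 2797 against 1391, 1148 and 1294, near the limit of the rule at 2.01-fold. Of 13 measured genes of coagulation and the plasminogen system, TFPI2 and PLAT were higher and 0 were lower (list median 0.59). PLAT, tissue plasminogen activator, read 620.0 against 120.3, 26.7 and 8.73, and thus an activator of plasminogen and an inhibitor of plasmin were both highest in these cells.

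Response genes of the ERK pathway and AP-1 were shifted upwards as a list. Of 32 measured members, 5 were higher and 0 lower, against 1.73% and 0.604% of all measured genes. Of the 32, 21 (65.6%) had their highest signal in E-cadherin-low CD133-high cells, against 28.6% of all measured genes. The median log2 difference was 0.58. PHLDA1, an ERK-induced regulator of receptor signalling, read 1469 against 213, 241 and 164, and EGR3, an immediate early zinc-finger factor, 1280.3 against 327, 127 and 169. Its relative EGR4 read 1101 against 388, 93.3 and 211, and the AP-1 subunits JUN and FOSL1 read 599 against 247, 199.6 and 187 and 294 against 127, 38.4 and 44.3. Members outside the rule, named after their values were seen, included DUSP6, a phosphatase of ERK, at a log2 difference of 1.59, and FOSB, EGR1 and ATF3 at 1.33, 1.29 and 1.19. MYC and CCND1 went the other way, at -0.45 and -0.19. ERRFI1, a feedback inhibitor of EGFR that was on the list of glucocorticoid-responsive genes with SGK1, read 9205 against 2490.2, 2668 and 3018; these were the 2 of 20 measured members of that list counted as higher, with 0 lower and a list median of 0.19.

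Receptor genes were among the higher genes in several families. Over all measured genes 1.73% were higher and 0.604% lower, which is the background for the counts in this paragraph. EGFR, the receptor kinase most often mutated in lung adenocarcinoma, read 2118 against 851, 535 and 709, and 3 of its 5 other probe sets above the floor were highest in the same cells. AXL, a receptor kinase linked with mesenchymal states and with resistance to EGFR inhibitors, read 1518 against 271, 151 and 54.0, 5.604-fold above the next array. On the list of 34 receptor kinases and ligands these were the 2 higher genes. HBEGF, a ligand of EGFR, was the 1 lower gene with 366 against 872, 2754 and 8016. EREG, another ligand of EGFR, went the other way and just missed the rule. It was above the floor only here, at 115 against 4.53, 10.3 and 16.1. The axon-guidance receptor kinases EPHA5 and EPHA7 read 859 against 171, 135 and 91.7 and 267 against 41.7, 35.5 and 42.2, while the ephrin ligand EFNA3 was lower at 60.1 against 249, 122 and 159; 2 of 17 Eph and ephrin genes were higher and 1 lower. IL13RA2, a decoy receptor for interleukin 13, read 698 against 139.9, 16.9 and 51.9 and was the 1 counted gene of 22 cytokine and chemokine genes.

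Genes of G-protein signalling were picked out as a group after their values were seen. Over all measured genes 1.73% were higher, which is the background for the counts in this paragraph. Besides GNG11, 3 of 13 measured RGS genes, which shorten G-protein signals, were higher. RGS4 read 551 against 85.1, 7.89 and 17.9, RGS17 read 382 against 78.9, 50.3 and 46.9 and RGS5 read 271 against 89.6, 107 and 57.4. Of the 5 other probe sets of RGS5, 1 was lowest in these cells. Another was highest in E-cadherin-low CD133-low cells, at 84.0 against 80.3 here. Both measured prostaglandin E2 receptor genes were higher, PTGER4 with 976 against 427, 152 and 249 and PTGER1 with 151 against 44.9, 75.0 and 66.6. The beta-1 adrenergic receptor ADRB1 read 658 against 269, 249 and 190.0. PTH1R, the receptor of parathyroid hormone, was above the floor only here, at 173, and at least 3.01-fold above the other arrays. The chosen probe set of CHRM3, a muscarinic receptor, was above the floor only here as well, at 140.3 and at least 2.45-fold higher, but another of its probe sets was highest in E-cadherin-high CD133-low cells, at 74.6 against 50.02 here.

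The next genes, of lipid handling, iron and haem and drug efflux, were picked after their values were seen, and such genes also lay among the lower ones (the carrier SLC27A6, and STEAP3 and STEAP1B of the STEAP metalloreductase family, 2 of its 4 measured members). Over all measured genes 1.73% were higher and 0.604% lower. PPARG, the nuclear receptor of fat cell differentiation, read 1125 against 278, 90.5 and 61.3, and its target FABP4, a carrier of fatty acids, 1543 against 239.9, 34.6 and 31.3, and both were second highest in the other CD133-high cells. The other probe set of FABP4 read 64.8 in E-cadherin-high CD133-high cells and 56.7 here, under the floor of this array. HMOX1, haem oxygenase, which is induced by oxidative stress, read 7586 against 1639, 1527 and 1519, with the 3 other arrays within a narrow range. CYBRD1, a ferric reductase, read 958 against 121, 158 and 65.6. ABCG2, a drug efflux pump used to define side-population stem-like cells, read 957 against 301, 199 and 391.8, and ABCG1, which exports cholesterol, 889.9 against 335, 164 and 180.4. HMOX1 and ABCG2 were the counted genes of 28 in drug transport and detoxification, and ABCG2 was the only one of 21 stem-like cancer cell genes counted, with a list median of 0.11 that ranged from -0.17 to 0.11 over the alternatives.

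S100 proteins, cytoskeletal genes and genes of unclear role filled most other leading places. S100A6, a calcium-binding protein of migrating cells, read 5796 against 941, 32.0 and 10.7 and was bright in both CD133-high subpopulations and under the floor in both CD133-low ones. Of 16 S100 and galectin genes 2 were higher, against 1.73% of all measured genes. The other of the 2, S100A11, was above the floor only in E-cadherin-low CD133-high cells, with 186 against 16.2, 46.0 and 37.9. TMSB4X, thymosin beta 4, which sequesters actin monomers, read 20044 against 1605, 2500.1 and 1424 on a probe set marked as shared between transcripts, and SYNE1, a nuclear envelope protein that binds the cytoskeleton, 705 against 43.4, 98.5 and 33.8. BRINP3 read 1355 against 84.6, 70.5 and 124, TMEM88, a regulator of Wnt signalling, 528 against 41.2, 38.1 and 11.7, and the adhesion molecule PCDH18 595 against 66.6, 46.8 and 14.7. In TMEM88 all 3 other arrays were under the floor, and in BRINP3 none was. The RNA-binding splicing factor CELF2 read 774 against 91.0, 76.5 and 95.2, and TMEM52B 1321 against 21.5, 216 and 153. C1QTNF12, a secreted relative of complement C1q, read 905 against 155, 52.9 and 52.2, and 2 uncharacterised transcripts, LINC00645 (412 against 29.6, 24.2 and 25.5) and LOC107984282 (354 against 49.6, 36.8 and 33.7), were under the floor elsewhere.

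Besides CCND2, the cell cycle inhibitor CDKN1A (p21) was higher at 1710.4 against 739, 337 and 415. These were the 2 of 19 D and E cyclins and CDK inhibitors counted, against 1.73% of all measured genes counted as higher. On that list 7 genes were highest here and 6 lowest, with a median log2 difference of 0.04. The antiproliferative genes TOB1 and TOB2 read 14026 against 6844, 5302 and 3995 and 4835 against 2195, 2165 and 1919.5. The other probe sets of TOB2 were not highest here. They read 184 here against 186 in E-cadherin-high CD133-high cells, and 60.6 against 78.2 in E-cadherin-low CD133-low cells. Of 40 genes for DNA replication and mitosis 0 were counted in either direction, yet 28 (70.0%) had their lowest signal in E-cadherin-low CD133-high cells, against 24.2% of all measured genes, and 0 had their highest. The median log2 difference was -0.42, from -1.23 for GINS2 to 0.09 for CDT1, and it was -0.38 after quantile normalization and -0.53 with equal array medians. The replication helicase genes MCM3 and MCM2 were at -1.09 and -0.91, the mitotic kinase CDK1 at -0.96 and the proliferation marker MKI67 at 0.06; these 6 genes were named after their values were seen. Ribosomal protein genes were lowest here in 31 of 35, with a median of -0.26 that shrank to -0.02 after quantile normalization.

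Of 27 mesenchymal and transition genes 4 were higher (AXL, COL1A2, LUM and DCN) and 0 lower, against 1.73% and 0.604% of all measured genes, with a list median of 0.13. ZEB1 was 1.23-fold above E-cadherin-low CD133-low cells, inside the 2-fold limit. Of 32 epithelial junction genes 1, MAL2, a protein of apical membrane traffic, was lower, with 283 against 10869.5, 664 and 8772, and 0 were higher; the list median was -0.24. CDH1 itself was 1.52-fold under E-cadherin-low CD133-low cells.

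**Figure D3:**
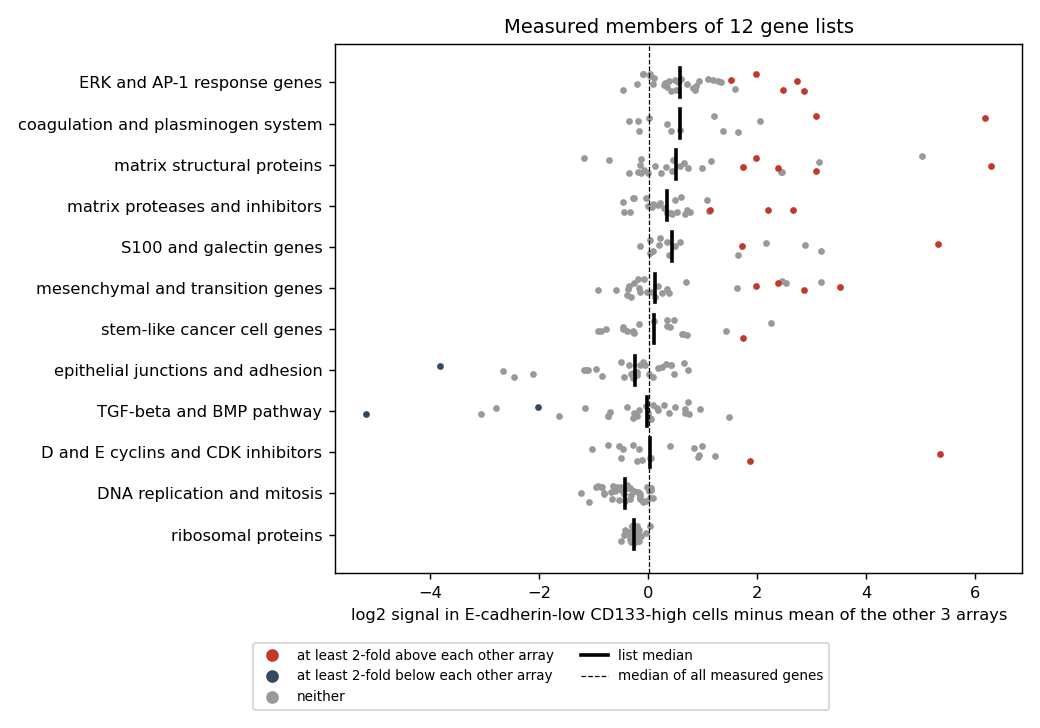
Log2 signal in E-cadherin-low CD133-high cells minus the mean log2 signal of the other 3 arrays (horizontal axis) for each measured member of 12 gene lists (vertical axis); red and dark points met the rule, grey points did not, short black lines are list medians and the dashed line is the median of all measured genes, 0.03. The ERK and AP-1 list lies mostly to the right (median 0.58), and the DNA replication list (median -0.42) and the ribosomal list (-0.26) lie to the left without a counted gene.

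TMEM47, FOXA1 and ID3 were among the lower genes with the largest smallest ratio. TMEM47, a junction-associated membrane protein, led them with 154 against 2304, 2406 and 1347, and its other probe set was at the floor in these cells and above it on the other arrays. FOXA1, a pioneer factor of epithelial lineages in lung and other organs, read 226 against 2016, 1798 and 2381, 7.94-fold below the next array, and its other probe set above the floor was lowest here too, at 165 against 995 to 1327. ID3, an inhibitor of helix-loop-helix factors induced by BMP signals, read 181 against 771, 19862 and 17878, so that the CD133-low arrays were far above both CD133-high arrays, and E-cadherin-low CD133-high cells were 4.27-fold below the other one. BMP7, a BMP ligand, read 107 against 329, 707 and 349. Over all measured genes 0.604% were lower. FOXA1 was the 1 counted of 16 lung lineage, GATA and FOXA factors, of which 3 were highest and 4 lowest here. ID3 and BMP7 were the 2 of 30 TGF-beta and BMP pathway genes counted, while the list median was -0.02 and changed sign among the alternatives (-0.13 to 0.13).

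Other lower genes included further transcription factors, an integrin and metabolic enzymes. The retinoic acid receptors RARB and RARA read 256 against 756, 1667 and 1743 and 90.7 against 258, 208 and 355, and PBX3, a homeobox cofactor, 1069 against 4916, 3409 and 6403. MYB, a factor of proliferating progenitors, read 175 against 432, 488 and 612, and DNMT3B, a de novo DNA methyltransferase, 540.4 against 1211, 1673 and 2032. In each of these 5 genes the 3 other arrays were above the floor and E-cadherin-high CD133-low cells had the highest signal. ITGA2, the alpha-2 chain of a collagen-binding integrin, read 380.3 against 1172, 1518 and 1581. It was the 1 gene counted of 14 integrins, against 0.604% of all measured genes counted as lower. Of the 14 integrins 7 were highest here and 2 lowest, against 28.6% and 24.2% of all measured genes. PERP, a desmosome-associated membrane protein, read 3769.7 against 29287, 10501 and 24428, with E-cadherin-low CD133-low cells in between. SLC27A6 and SLC44A1, carriers of fatty acids and choline, read 144 against 787, 766 and 1103 and 1339 against 4767, 6778 and 4283.

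FAM169A, at 215 against 1738, 1402 and 1369.8, and PDLIM1, a LIM protein of actin fibres, at 347 against 2041, 1569.9 and 2699, had signals within 2-fold of each other on the 3 other arrays. MCOLN2, an endosomal channel, read 219 against 851, 1733 and 1987, and RAP2B, a small GTPase, 3617 against 11087, 11325 and 12804. AADAT, an enzyme of kynurenine metabolism, read 62.1 against 377, 222 and 336 and VWDE 149 against 475, 713 and 478. ENHO and DPP10-AS1 were at the floor in these cells and were at least 3.26-fold and at least 3.08-fold lower. MDFIC, SELENOP and GUSBP4 rest on probe sets marked as shared between transcripts or genes. MDFIC read 339 against 3947, 1406 and 1495. SELENOP read 222 against 2084, 1889.7 and 896, and GUSBP4 67.2 against 219.8, 209 and 237. A further probe set of MDFIC was lowest in E-cadherin-high CD133-low cells, at 81.3 against 83.4 here. The rest of its other probe sets were under the floor both here and in E-cadherin-high CD133-low cells. The other probe set of GUSBP4 was highest in E-cadherin-low CD133-high cells.

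Signals raised to the floor were also set against the sum of the differences that went with each sorted marker. If each marker shifted log2 signal by the same amount in either state of the other, the expected value would be the sum of the E-cadherin difference in CD133-low cells and the CD133 difference in E-cadherin-high cells. Among the higher genes 200 of 244 exceeded that value by at least 1, 4 were at or below it, and the median excess was 1.53, against 0.05 over all measured genes; 62 of the 85 lower genes fell short of it by at least 1, with a median of -1.44. The rule favours such genes, so these counts only describe the set, and the same counts were not made over all measured genes. The nearest other array was E-cadherin-high CD133-high for 115 higher genes, E-cadherin-high CD133-low for 82 and E-cadherin-low CD133-low for 47. For the 45 higher genes with all 3 other arrays at the floor, it was E-cadherin-high CD133-low by construction. That array had a floor of 57.4, against 57.0 in E-cadherin-low CD133-low and 53.7 in E-cadherin-high CD133-high cells. The place of E-cadherin-high CD133-low cells in this order therefore rests on the floor. In 170 higher genes the 3 other arrays lay within 2-fold of each other. The genes with all 3 other arrays at the floor are among these by construction, so the 170 are no measure of likeness. In 45 higher genes the signal was also at least 2-fold higher with CD133 in E-cadherin-high cells. In 18 it was at least 2-fold higher in E-cadherin-low cells among CD133-low cells. Of the lower genes 63, 11 and 6 had these patterns in their direction. The patterns were not counted over all measured genes, so no background share stands beside them.

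**Figure D4:**
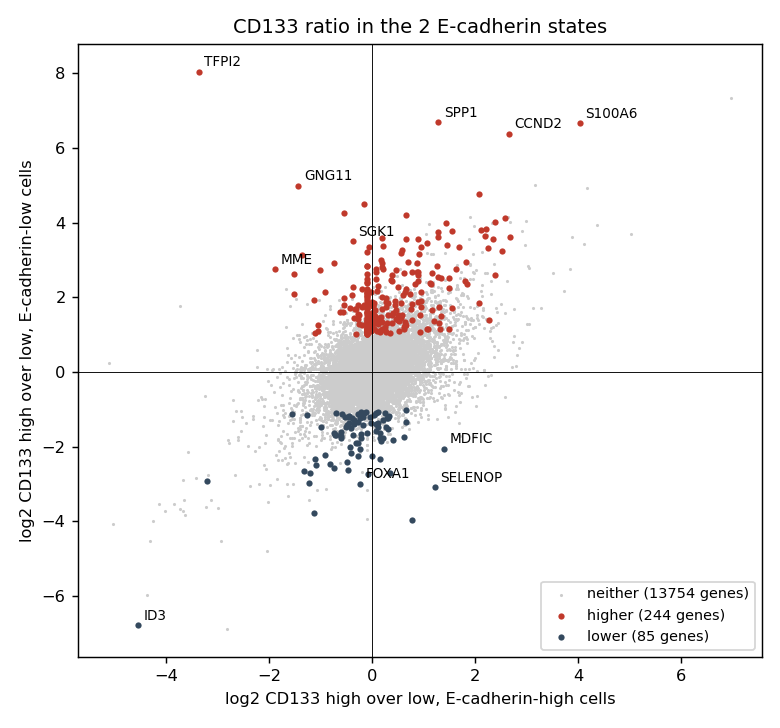
Log2 ratio of CD133-high over CD133-low cells among E-cadherin-high cells (horizontal axis) and among E-cadherin-low cells (vertical axis) for 14083 measured genes, with signals under the floor raised to it; the 244 higher genes are red, the 85 lower genes dark and all others grey. Most red and dark points lie near the vertical line at 0, with differences in E-cadherin-low cells only, while S100A6, CCND2 and ID3 differ the same way in both, and TFPI2, GNG11 and MME lie on opposite sides of 0.

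Several members were neighbours in RefSeq order. With at most 3 measured genes between them, 75 of the 244 higher genes fell into 34 runs, 5 of them with 3 or more genes, and 12 of the 85 lower genes into 4 runs. Runs were not counted for the other arrays or for randomly drawn genes, so these counts do not show more clustering than other sets would have. Some pairs were a gene and a transcript named after it, such as BRINP3 with BRINP3-DT and RBMS3 with RBMS3-AS3. On chromosome 7, TFPI2, GNG11 and COL1A2 stood together around BET1, a vesicle protein, which read 1426 against 1066, 1019 and 821. On chromosome 4, SPP1 lay beside ABCG2, and on chromosome 3 MME beside STRIT1, a muscle micropeptide gene, at 386 against 18.2, 117 and 55.0. On chromosome 12, EPYC, a small proteoglycan gene at 150.3 against 28.2, 22.0 and 2.88, stood beside its relatives LUM and DCN and near POC1B (3329.7 against 1505, 1511 and 604). Another run on this chromosome held PDE3A, a phosphodiesterase, at 1300.2 against 243, 50.5 and 270.1, with RERGL, IAPP and GOLT1B, and another held BCAT1, RASSF8-AS1 and BHLHE41. On chromosome 1, RGS4 lay beside RGS5.

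The lower genes were concentrated on the short arm of chromosome 20. It carried 13 of the 85, out of 132 measured genes, against 2 of 273 on the long arm and 0.604% of all measured genes. The short arm also held 1 higher gene, SNAP25, a synaptic vesicle fusion protein, at 1300.2 against 573, 137 and 99.4. NAA20, a subunit of an N-terminal acetyltransferase, read 1434 against 3485, 3353 and 4578, XRN2, a nuclear exoribonuclease, 484 against 1282, 1109 and 1451, and NXT1, a factor of mRNA export, 604 against 2241, 2245 and 2729. Each was above 1000 on the 3 other arrays and lowest in E-cadherin-low CD133-high cells. GZF1, NAPB and PAX1 belonged to the same run, POLR3F, a subunit of RNA polymerase III, and RBBP9 stood side by side with 214 against 545, 605 and 727 and 238 against 685, 578 and 596, and MGME1, a mitochondrial exonuclease, read 624 against 2164, 1933 and 1941.

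The shift covered most genes of the short arm and not only those that met the rule. Over its 101 genes above the floor on all arrays, the median log2 difference from the mean of the other arrays was -0.64, a ratio of 0.643, and 67 (66.3%) were lowest in these cells, against 29.7% of all genes above the floor on all arrays. The 205 such genes of the long arm had a median of -0.00 and 26.3% lowest. Without the lower genes that met the rule, 90 short-arm genes had a median of -0.57, and 56 (62.2%) were lowest. Against single arrays the short-arm median ratio was 0.558 to E-cadherin-high CD133-high, 0.688 to E-cadherin-low CD133-low and 0.646 to E-cadherin-high CD133-low cells, with 90, 77 and 77 of the 101 genes lower. The other 3 arrays had short-arm medians of 0.47, 0.04 and 0.24 against the mean of the rest, in the same order. The arm was singled out after its values were seen, and copy number was not measured.

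**Figure D5:**
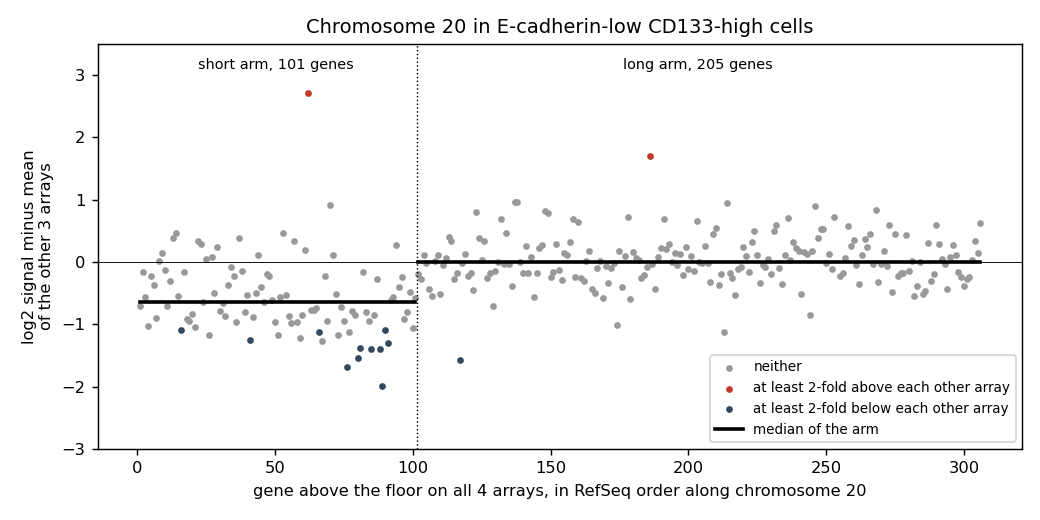
Log2 signal in E-cadherin-low CD133-high cells minus the mean of the other 3 arrays (vertical axis) for the 101 short-arm and 205 long-arm genes above the floor on all 4 arrays, in RefSeq order (horizontal axis, by rank and not by distance); the dotted line separates the arms, thick lines are arm medians, and red and dark points met the rule. Points of the short arm are centred on -0.64 and those of the long arm on -0.00.

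Other probe sets of the same genes were read from the same RNA and so are no replicates. A probe set that passed the floor only through this array had to be highest, so the shares below describe the set and are given again for probe sets above the floor on all 4 arrays. Of 190 further probe sets above the floor for 99 higher genes, 159 (83.7%) were highest in E-cadherin-low CD133-high cells, 72 (37.9%) by at least 2-fold, 29 were mixed and 2 were lowest. Among 12270 further probe sets of genes outside the set, 28.0% were highest and 0.766% were so by at least 2-fold. For 45 lower genes, 53 of 74 (71.6%) were lowest, 20 (27.03%) by at least 2-fold, 19 were mixed and 2 were highest, against 20.3% and 0.367% outside the set. Above the floor on all 4 arrays, 60 of 66 (90.9%) were highest for higher genes and 44 of 47 (93.6%) lowest for lower genes, against 28.5% and 26.3% of 8642 outside the set, and this comparison was added after the values were seen. With no floor the shares were 51.5% and 35.2%. The chosen probe set of 68 higher and 29 lower genes carried an ID that marks it as shared between transcripts or genes.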

How the data were processed

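Total RNA of 4 sorted PC14 subpopulations was read on 1 Affymetrix array each. The deposited intensity of a probe set is on a linear scale and was made with MAS5 per the submitters' processing notes, with version and scaling target not given in the sources used here. A trimmed mean (2% left out at each end) was 499.9 on every array, which shows that the authors' values were scaled array by array. Of 54675 probe sets, 62 were controls, 41097 had 1 gene symbol in the platform annotation, 1801 had more than 1, and 11777, with the controls, were unnamed here. By gene ID 41043 matched RefSeq (GRCh38.p14), which gave names, gene order and promoters. For each of 19775 genes the probe set of highest mean log2 signal was used. The floor was the 50th percentile of probe sets other than controls, and 14083 genes above it on at least 1 array were measured, 10891 on all 4.

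The members, the 36 gene lists and the rules were chosen with earlier results of these data known. Named genes are the 5 markers, the 25 highest and 20 lowest by smallest ratio, up to 4 counted members of each list, 2 genes on each side of the limit and CDH1, ZEB1 and PROM1. Members named for their family, neighbours or role beyond that rule were chosen after their values were seen. A ratio against an array at the floor is a lower bound, written "at least". The counting was tested on simulated data. Alternatives were quantile normalization, equal array medians, other floors and thresholds, the mean over probe sets and no shared probe sets. Python 3.11.15, numpy 2.4.6, pandas 2.3.3 and matplotlib 3.10.9 were used.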

Additional observations from a re-analysis of the deposited data

Results flagged for a closer look

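For 9 of the named genes a ratio of at least 2-fold went in opposite directions in the 2 states of the other marker. With 1 array per subpopulation the difference was not tested for any of them, and samples far from their group could not be sought.

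Where an array was under the floor, its ratio used the floor and is a lower bound of the size, written with "at least" or "or lower".

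TFPI2, the protease inhibitor, had a log2 CD133 ratio (high over low) of -3.37 among E-cadherin-high cells but of at least 8.04 among E-cadherin-low cells. Its log2 E-cadherin ratio (low over high) was -4.45 or lower in CD133-low and 6.95 in CD133-high cells, and the pairs differed by at least 11.4 for either ratio. In GNG11, its neighbour, all ratios are such bounds: -1.43 or lower and at least 4.99 for CD133, -1.34 or lower and at least 5.08 for E-cadherin, and a difference of at least 6.42 for either. The peptidase MME had CD133 ratios of -1.89 or lower and 2.75, a difference of at least 4.64, and TMEM52B of -1.51 or lower and 2.61, a difference of at least 4.13. EGR4, the immediate early gene, had E-cadherin ratios of -1.17 and 1.503, a difference of 2.68. The remaining 4 genes went the other way. SELENOP, a selenium carrier, had CD133 ratios of 1.22 and -3.09 and E-cadherin ratios of 1.08 and -3.23, a difference of -4.31 for either. MDFIC had CD133 ratios of 1.40 and -2.05 (difference -3.45). DPP10-AS1 had E-cadherin ratios of 1.02 and -1.62 or lower (difference -2.64 or lower) and BMP7 of 1.02 and -1.61 (difference -2.63). Over all measured genes, 32 had opposite CD133 ratios of this size and 33 opposite E-cadherin ratios.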

How the results depend on the processing

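With 1 array per subpopulation, depth and replicate error could not be estimated; signal above the floor is the limit. No paired analysis was possible because each subpopulation has 1 array and no replicate numbers are shared. In E-cadherin-low CD133-high cells the 244 higher and 85 lower genes became 724 and 665 with no floor, 560 and 276 with the floor at the 25th percentile, 159 and 55 at the 65th, 698 and 383 at 1.5-fold and 90 and 21 at 3-fold. Quantile normalization, equal array medians, the mean over probe sets and leaving out shared probe sets kept both counts within 1.5 times; the mean over probe sets shared 151 and 44 genes with the reported ones. With no floor, these cells had the most higher genes of the 4 arrays and the fewest lower ones.

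Counts of higher and lower genes on the other arrays moved as follows. In E-cadherin-high CD133-high cells they were 110 and 42 with equal array medians, 401 and 930 with no floor, 241 and 413 with the 25th percentile, 273 and 247 at 1.5-fold and 19 and 10 at 3-fold, and 30 were lower with the 65th percentile. In E-cadherin-high CD133-low cells they were 592 and 915 with no floor, 375 and 443 with the 25th percentile, 234 and 428 at 1.5-fold and 5 and 18 at 3-fold, and 18 were higher with the 65th percentile. In E-cadherin-low CD133-low cells they were 547 and 852, 324 and 432, 301 and 494, and 16 and 30 in the same order, and 39 and 84 with the 65th percentile. The share of other probe sets on the same side was 51.5% (higher) and 35.2% (lower) with no floor and 35.8% (lower) with the 25th percentile; the mean over probe sets gives no such share.

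Of 78 counted genes named by rule, 46 met the rule under every alternative that gave a value. GUSBP4 reversed, to a log2 ratio of 0.59, without shared probe sets. Equal array medians moved the median over all measured genes from 0.03 to -0.08. The short-arm median of chromosome 20 was -0.74 to -0.49 over the alternatives, with 8 lower genes there without shared probe sets.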

Other observations

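A further 4 stretches of the genome had medians shifted upwards in E-cadherin-low CD133-high cells over 40 neighbouring genes above the floor on all arrays. Over 9974 such windows the 5th and 95th percentiles of the median log2 difference were -0.22 and 0.24. The highest window of chromosome 15, from HAPLN3 to ALDH1A3, had a median of 0.64, with 25 genes highest in these cells, and held 3 higher genes of the set. Chromosome 12 from DERA to CPNE8 had 0.53 with 28 genes highest, chromosome 6 from ATXN1 to BTN3A2 had 0.51 with 20, and chromosome 8 from MTUS1 to DPYSL2 had 0.51 with 28. In the last stretch PCM1, a centriolar satellite protein, read 5582 against 1023, 1607 and 1498, and its 5 other probe sets above the floor were all highest in these cells. PDGFRL read 2626 against 981, 738 and 1013 and SLC25A37, a mitochondrial iron carrier, 1163 against 535, 554 and 442. Some other probe sets of SLC25A37 were not highest here, while more of those above the floor were. Besides chromosome 20, the lowest windows were on chromosome 3 from CMSS1 to ZBTB20 (-0.55, 29 genes lowest) and chromosome 19 from WDR83 to NDUFB7 (-0.42, 26 lowest, none of them in the set). These windows overlap, were ranked after their values were computed, and have no test.

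Neuronal genes gave 4 higher members of 32 measured and 0 lower, against 1.73% and 0.604% of all measured genes. The list median was 0.19, and it was 0.09 with equal array medians. Besides SNAP25, the neurofilament gene NEFL read 497 against 171, 109.6 and 159.6. Its other probe set above the floor was highest in E-cadherin-high CD133-low cells, at 91.9 against 59.4 here. The guidance ligand SEMA3E (238 against 48.6, 23.5 and 1.9) and receptor NRP1 (119.9 against 29.6, 17.3 and 1.63) were above the floor only in these cells. Sterol and lipid synthesis genes had a median of 0.37 with 0 of 25 counted, and genes of hypoxia and glycolysis -0.23 with 0 of 33. HOX genes had a median of -1.06 with 0 of 25 counted, while 6 (24.0%) were lowest here, against 24.2% of all measured genes, and 2 were highest. CTH, an enzyme of cysteine synthesis, was the 1 counted of 27 stress genes, at 1866 against 830.2, 625 and 831.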
